A study of Hordeum vulgare with 30 samples.

Results

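Control roots of 4 winter barley varieties were compared by the row type of their spikes. Passport and Pilastro are six-row varieties and Infinity and Regina are two-row varieties. All control libraries of these varieties entered the comparison, which made 12 of the 30 libraries of the series, 6 of each row type and 3 of each variety. Each variety had the same weight, so that the six-row value was the average of Passport and Pilastro on the log scale and the two-row value that of Infinity and Regina. The seedlings were 10 days old when the treatment began, the controls were watered normally, and each library holds root systems pooled from 3 plants. The 12 libraries of the same varieties from waterlogged roots and the 3 control libraries of Golden Promise, a two-row spring variety, stood outside the contrast. They and the waterlogged Golden Promise libraries set values beside it. All 30 libraries were fitted together, so these also entered the filter on low counts, the scaling and the estimate of spread behind each p-value. Regina, Passport and Pilastro came from 1 collection of winter varieties and Infinity from another source, and each row type is represented by only 2 varieties.

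In two-row barley only the central spikelet at each node of the spike sets grain, while in six-row barley the lateral spikelets are fertile as well. The trait is controlled mainly by VRS1, a gene for a homeodomain transcription factor that acts in the developing spike and not in the root. Row type also divides much of the winter barley grown in Europe into separate breeding pools, so varieties of different row type differ at many loci besides VRS1. With 2 varieties of each type, differences that belong to row type and differences that belong to the varieties cannot be told apart. The deposited counts were made on the genome of Morex, itself a six-row variety, and what the choice of reference added to any difference was not tested.

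Totals were 12046408 to 12317952 counts in the 6 six-row libraries and 9601984 to 11078751 in the 6 two-row libraries, so depth did not overlap between row types. The number of genes with a count did overlap (21386 to 21904 against 21372 to 21638), and so did the TMM scaling factors (0.988 to 1.01 against 0.986 to 1.04). The numbers in the sample names also differ between the six-row and the two-row varieties, and a difference in handling that went with the names cannot be told apart from row type. No libraries of 1 variety agreed within counting error (chi-square per degree of freedom 13.1 to 38.8). No root-defining gene was named in the annotation at hand. Of 6 photosynthesis genes that mark green shoot tissue, 2 passed the filter on low counts and stayed under 3 CPM on average in each variety, CPM being a count scaled to a common TMM-adjusted library total. Of 20 histone genes, which mark dividing cells, 16 were tested and 1 (6.25%, against 6.9% of all genes tested), a histone H2A gene, was higher in six-row roots, a call that was not kept in every fit with 1 control library left out. In whole roots, fewer cells of a type and less RNA per cell cannot be told apart.

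One library outside the comparison went against its label. Among genes at 0.3 CPM or less in the other 5 Passport libraries and at 3 CPM or more in every Infinity library, 17 of 30 were over 0.3 CPM in the library labelled Passport waterlogged replicate 2, with a summed level of 14.4% of that in Infinity. The 12 control libraries of the comparison had at most 1 such gene each, whichever other variety was taken, and the other libraries of the series at most 4. The main results from waterlogged roots are therefore given with and without this library.

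The 12 control libraries were first compared as a whole by principal components of the 500 most variable genes after variance stabilization. PC1 held 26.5% of the variance and PC2 20.6%. On PC1 the scores were 6.96 to 13.2 in the six-row libraries and -13.4 to -4.27 in the two-row libraries, and 94.0% of the variance of these scores lay between row types. The Regina library nearest to the six-row libraries was replicate 1. PC2 set Passport and Infinity (7.84 to 11.9) apart from Pilastro and Regina (-11.1 to -8.79), so the second axis grouped 1 six-row with 1 two-row variety.

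**Figure D1:**
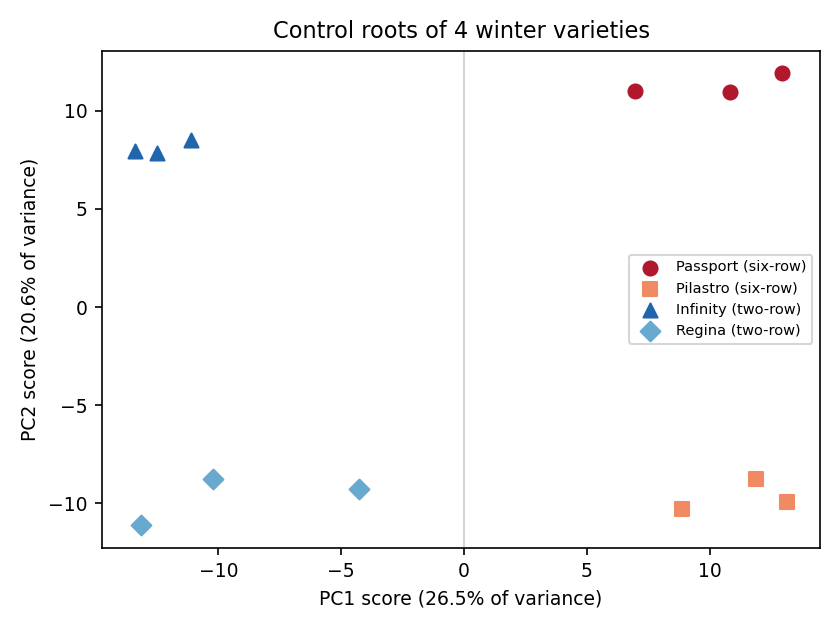
Scores of the 12 control libraries on PC1 (horizontal) and PC2 (vertical), 1 point per library, marked by variety. The 6 six-row libraries lie to the right of the 6 two-row libraries on PC1, while PC2 pairs Passport with Infinity and Pilastro with Regina.

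Of 20576 genes tested, 3165 (15.4%) differed between row types (edgeR's quasi-likelihood test, Benjamini-Hochberg adjusted p under 0.05). Higher in six-row roots were 1419 genes (6.9%) and lower were 1746 (8.49%). Most of these differences were small. The median size was 0.51 on the log2 scale, 56.5% of the called genes differed by less than 1.5-fold, and 737 (23.3%) by at least 2-fold. In a test against a 2-fold change 209 genes were called. The libraries of the row types did not overlap in 902 genes (4.38%), of which 828 were among the 3165. When only the 12 control libraries were fitted the count was 1981, of which 1860 were among the 3165.

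A row-type average can be carried by a single variety, so each six-row variety was also tested against each two-row variety in the same fit. These pairs share libraries with each other and with the average. Passport differed from Infinity in 1330 genes and from Regina in 1444, and Pilastro differed from Infinity in 2580 genes and from Regina in 2347. Within a row type, Passport and Pilastro differed in 1198 genes and Infinity and Regina in 885. Of the 3165 genes, 188 were called in all 4 pairs in the same direction, which is 5.94% of the called genes and 0.914% of those tested. Another 190 were called in 3 pairs, 1513 in 2, 800 in 1 and 474 in none.

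**Figure D2:**
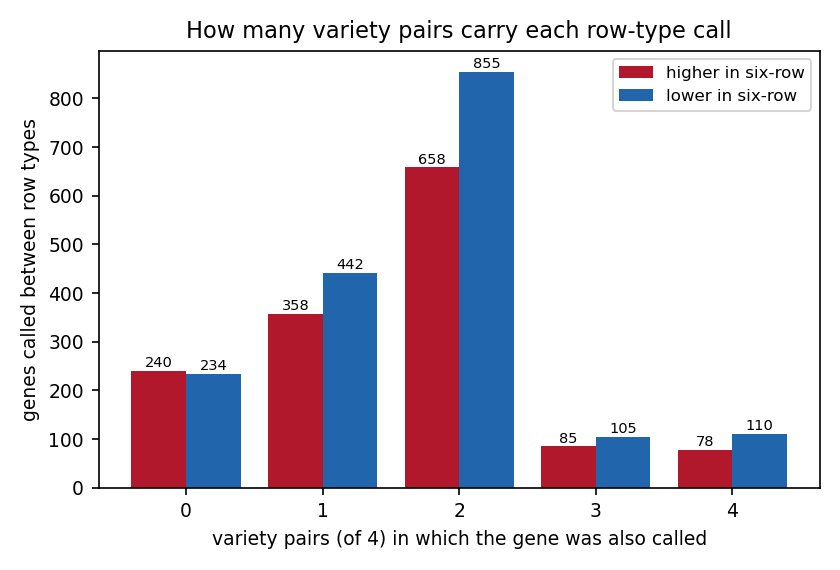
Number of genes called between row types (vertical axis) by the number of variety pairs in which the same gene was also called in the same direction (horizontal axis), split into genes higher and lower in six-row roots. The tallest bars are at 2 pairs (658 higher, 855 lower), and 78 higher and 110 lower genes were called in all 4.

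Pilastro carried more of the calls than any other variety. With Pilastro left out, so that Passport alone stood for six-row roots, 1310 of the 3165 calls (41.4%) were kept in the same direction. With Passport left out 2305 (72.8%) were kept, with Infinity left out 1747 (55.2%) and with Regina left out 1664 (52.6%). Only 442 calls (14.0%) were kept whichever variety was left out. When the 4 variety means were taken as the replicates, limma called 2 genes, with 2366 genes at an unadjusted p under 0.05. An exact permutation test of 2 varieties against 2 cannot give a two-sided p below 0.333. These 2 genes, named by no rule and looked up after their values were seen, have no description at hand and lie on chromosome 1H by their IDs. Both were lower in six-row roots, by 6.46 and 5.98 on the log2 scale (adjusted p = 0.0431 for each). Both calls were lost with a prior count of 0.5 in place of 2, which left 0 genes called and 2384 at an unadjusted p under 0.05.

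The 188 genes called in all 4 pairs differed by a median of 1.19 on the log2 scale, and 105 of them by at least 2-fold. In 178 of the 188 the libraries of the row types did not overlap. The calls that chose these genes used the same libraries, so non-overlap in those named below is no further evidence. Functional descriptions were at hand for 32 of the 188. They come from a part of the annotation that covers chromosome 1H best, so 18 of the 32 lie on 1H. IDs are given without their common prefix HORVU.MOREX.r3, and the first characters of an ID give its chromosome.

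Gene 1HG0060150, annotated as FLX-like 3, had counts in the six-row but not in the two-row winter controls. In Arabidopsis, FLX and its relatives are coiled-coil proteins that act in the control of flowering time. It was measured at 21.6, 26.8 and 30.2 CPM in the lowest, median and highest six-row library and had 0 counts in every two-row library. Against a floor of 3 counts in each two-row library it was at least 94.6-fold higher in six-row roots (adjusted p = 3.84e-13). The 3 Golden Promise controls, which are two-row, had 280 to 396 counts of it, so the gene followed row type only among the winter varieties.

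Early nodulin 93, a small protein first known from young legume nodules (7HG0649530), had 0 counts in all 6 two-row libraries. In six-row libraries it was at 0, 9.17 and 52.1 CPM (lowest, median and highest), with the 0 in a Pilastro library, so the row types overlapped there. Its mean was at least 57.8-fold higher in six-row roots against the floor of 3 counts per library (adjusted p = 0.00284). Without Pilastro replicate 2, the library at 52.1 CPM, the bound was 32.7-fold. In waterlogged roots it also had 0 counts in every Infinity and Regina library and 919 to 3691 counts in the Passport and Pilastro libraries. Golden Promise had 0 counts in its controls and 457 to 1065 when waterlogged. Genes of this name occur in near-identical copies, and how reads were shared among copies is not given in the sources used here.

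Other genes were present in both row types but at different levels. A non-specific lipid-transfer protein-like gene (1HG0010340), from a family of small secreted proteins that carry lipids, was at 73.9, 102 and 117 CPM in six-row and 27.4, 31.4 and 48.3 CPM in two-row libraries (lowest, median, highest). The difference was 1.59 on the log2 scale (SE 0.15, adjusted p = 1.83e-07). A phospholipid-transporting ATPase gene (1HG0069040), whose family flips lipids between membrane leaflets, was at 6.39, 7.77 and 9.86 CPM against 1.48, 2.50 and 3.04 CPM, a difference of 1.71 (SE 0.17, adjusted p = 3.72e-07). An APMAP-like gene (2HG0125650, adipocyte plasma membrane-associated protein) was at 2.89, 8.09 and 14.5 CPM against 0.206, 0.418 and 0.893 CPM. All 3 genes separated the 6 six-row from the 6 two-row libraries without overlap, and within the six-row varieties the APMAP-like gene was higher in Passport (12.2 ± 2.47 CPM, SD, n = 3) than in Pilastro (4.33 ± 1.94).

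A DnaJ chaperone gene (1HG0060530), of the family that works with heat shock protein 70, was 2.35-fold higher in six-row roots (31.4 to 38.6 against 9.83 to 18.8 CPM, adjusted p = 8.21e-07). A UDP-glycosyltransferase gene (1HG0069530), whose family attaches sugars to small molecules, was 2.11-fold higher (18.8 to 30.6 against 4.82 to 16.3 CPM). A metacaspase gene (1HG0068820), from a family of plant proteases related to cell death, was 1.71-fold higher (20.3 to 25.2 against 10.1 to 15.7 CPM). The gene annotated as 91A protein (3HG0329940) was 1.84-fold higher (58.5 to 72.3 against 29.9 to 41.7 CPM), and an alpha/beta-hydrolase gene (1HG0075340) 1.71-fold higher (11.5 to 19.9 against 7.05 to 11.2 CPM). As in 178 of the 188 genes, the libraries of the row types did not overlap in these 5. EdgeR's adjusted p-values lay between 1.01e-07 and 0.000942.

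Among the described genes called in all 4 pairs, a peroxidase gene (2HG0107970), from the secreted peroxidases that use hydrogen peroxide in the cell wall, was lower in six-row roots. It was at 0.904, 2.26 and 2.98 CPM in six-row and 3.66, 9.01 and 11.8 CPM in two-row libraries, and was 4-fold lower in six-row roots (SE 0.19 on the log2 scale, adjusted p = 9.58e-08). Infinity (11.6 ± 0.28 CPM, SD, n = 3) was well above Regina (5.26 ± 1.56). An amidohydrolase family gene (3HG0321570) was at 8.52, 9.93 and 13.6 CPM against 23.7, 26.5 and 27.7 CPM, a difference of -1.35 (SE 0.10, adjusted p = 2.45e-09). An ABC1-like kinase gene (6HG0629330), of a family of atypical kinases found in plastids and mitochondria, was at 5.63, 6.33 and 9.39 CPM against 14.5, 16.1 and 17.8 CPM, a difference of -1.25 (SE 0.10, adjusted p = 4.53e-09). In the last pair of genes both two-row varieties stood at nearly the same level, and the amidohydrolase gene was at 24.8 CPM in Golden Promise.

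A second ABC1-like kinase gene on another chromosome (7HG0650610) was lower by 0.64 on the log2 scale. A gene for a 26S proteasome non-ATPase regulatory subunit (2HG0170840), part of the complex that degrades ubiquitin-tagged proteins, was at 57.8 to 68.1 CPM in six-row and 76.9 to 101 CPM in two-row libraries (log2 difference -0.55, SE 0.06, adjusted p = 3.14e-07). A CDC48-like gene (1HG0062360), from the family of ATPases that pull ubiquitin-tagged proteins out of complexes, was at 1.32 to 2.31 against 3.78 to 5.33 CPM. An RNA-binding protein gene (1HG0066900), a gene for a UV-stimulated scaffold protein A-like protein (3HG0315650), known in humans for DNA repair during transcription, a kinase gene (1HG0068790) and an alpha/beta-hydrolase gene (1HG0033540) were each lower by 0.45 to 0.59. An amino acid transporter gene (2HG0161240) was lower by 1.18, at 0.817 to 1.49 against 2.00 to 3.61 CPM. None of these 8 genes overlapped between row types. In Golden Promise the proteasome gene was at 60.3 CPM, the level of the six-row varieties.

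**Figure D3:**
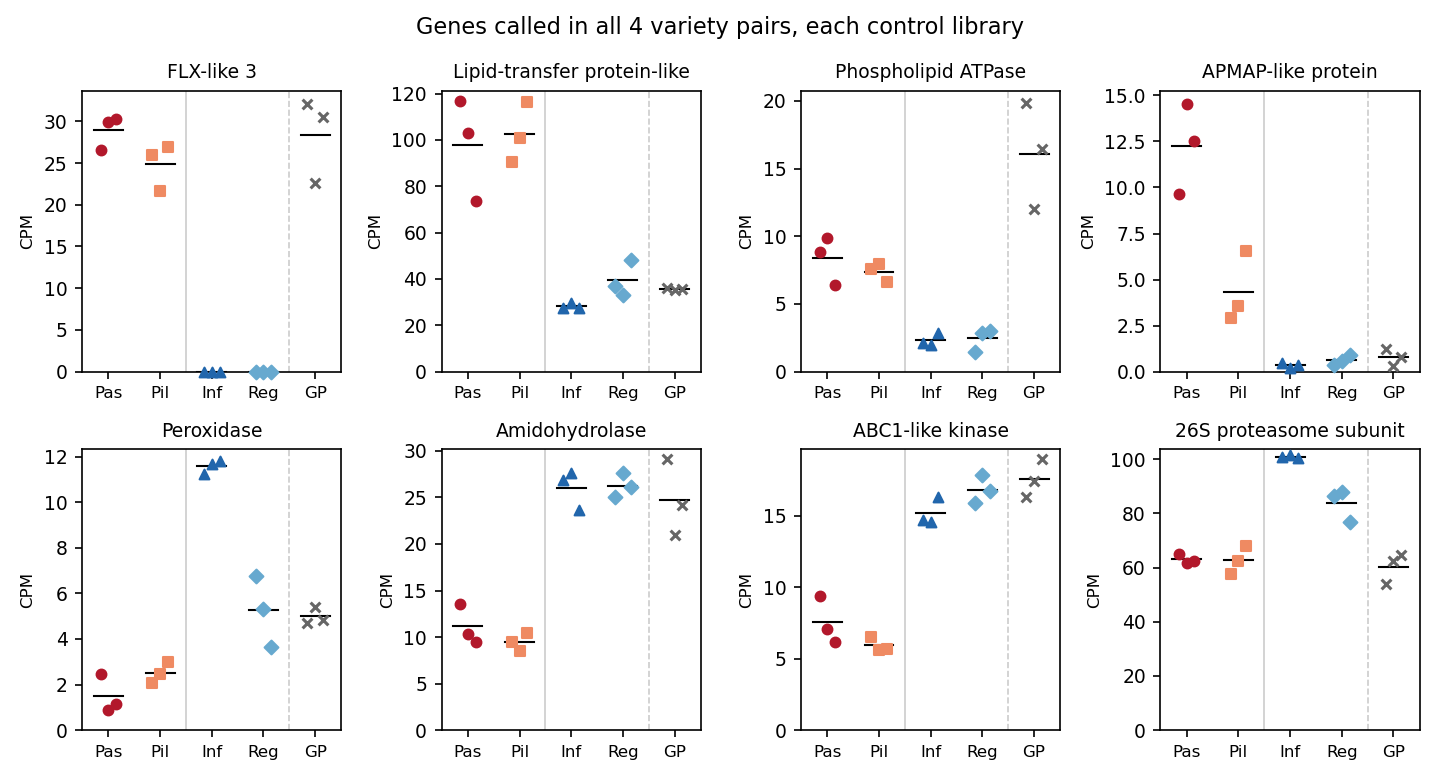
CPM of 8 genes called in all 4 variety pairs in each control library of Passport (Pas), Pilastro (Pil), Infinity (Inf), Regina (Reg) and Golden Promise (GP), with 1 point per library and a line at the mean of 3. In all 8 panels the 6 six-row and 6 two-row winter libraries are apart, as in 178 of the 188 genes so called. Golden Promise sits with the six-row varieties for FLX-like 3 and the 26S proteasome subunit and with the two-row varieties for the amidohydrolase.

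Of the genes in the 188 with no description, the 2 with the smallest p in each direction were 3HG0218870 and 6HG0629550, higher in six-row roots, and 2HG0208780 and 2HG0208740, lower in six-row roots. Gene 3HG0218870 was at 13.2 to 32.1 CPM in six-row and 0.268 to 1.02 CPM in two-row libraries. Gene 6HG0629550 was at 10.5 to 38.1 CPM and had 0 counts in every two-row library, which makes it at least 80.6-fold higher. Genes 2HG0208780 (means of 1.07 and 0.744 CPM in Passport and Pilastro against 10.7 and 9.77 CPM in Infinity and Regina) and 2HG0208740 (0.984 to 1.47 against 6.34 to 8.74 CPM) stand close together in the numbering of the genome.

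Presence and absence of counts was also examined. With at most 3 counts in each library of 1 row type and at least 10 in each of the other, 9 genes were present only in six-row controls and 5 only in two-row controls. FLX-like 3 was the only gene of these with a description. Of the 9, 7 had 0 counts in every two-row library and were at least 9.34- to 94.6-fold higher in six-row roots against the floor, and 3 of the 5 had 0 counts in every six-row library and were at least 6.43- to 87.8-fold higher in two-row roots. These limits cover counting error only. In waterlogged roots 8 of the 9 met the same limits but only 1 of the 5. The library labelled Passport waterlogged replicate 2 held 69 and 44 counts of 2 of the other 4, neighbors on 2H, and without it 8 of the 9 and 2 of the 5 met the limits. Golden Promise had at most 3 counts in each control library for 5 of the 9 six-row genes and at least 10 for 3 of them. Of the 5 two-row genes, it had at least 10 counts for 2 and at most 3 for 3.

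Disease resistance genes of the NLR type formed 1 of the gene lists. Lists of gene families hold only genes with a description, at hand for 3798 of 20576 tested genes and best for 1H. They cover the families in part. NLR proteins are intracellular receptors with a nucleotide-binding site and leucine-rich repeats that detect pathogen molecules and trigger defense, and in grasses they lie in clusters that vary in content between varieties. Of 67 annotated NLR genes at hand, all on 1H, 53 were tested. Higher in six-row roots were 26 (49.1%, against 6.9% of all genes) and lower were 3 (5.66%, against 8.49%). The median difference was 0.81 on the log2 scale, against 0.01 over all genes tested, and 25 of the 26 stayed called in each of the 12 fits with 1 control library left out. Levels were low, with a median of 3.04 CPM over the 4 varieties.

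Of the 29 NLR calls 1 was made in all 4 pairs, against 5.94% of all called genes. This gene, 1HG0000250, annotated as a TIR-NBS-LRR class protein, was at 1.24, 2.39 and 3.76 CPM in six-row and 0.372, 0.658 and 0.722 CPM in two-row libraries (log2 difference 1.99, SE 0.33, adjusted p = 0.000252). In 11 of the 26 genes Infinity was near absent, with a mean under 0.1 CPM, compared with 97 of all 1419 genes higher in six-row roots (42.3% against 6.84%). An example is 1HG0004340, of the NBS-LRR class, with 5.62 CPM in Passport, 10.5 in Pilastro, 2.39 in Regina and 0 in all 3 Infinity libraries. Genes 1HG0004370 and 1HG0004450, both NBS-LRR-like, were also at 0 in Infinity and at 0.557 CPM in Regina. All 11 were under 0.1 CPM in waterlogged roots of Infinity too, and 9 of the 11 were at 0.5 CPM or more in Golden Promise, the other two-row variety. Regina was under 0.1 CPM in 1 of the 26, and in 51 of all 1419 genes higher in six-row roots.

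In 4 other NLR genes 1 six-row variety was at least 3 times as high as every other winter variety. Gene 1HG0006160, annotated as RPM1, after an Arabidopsis resistance protein, was at 24.6 CPM in Passport and at 1.34 to 1.73 CPM in the other 3 varieties. Gene 1HG0000520, also annotated as RPM1, was at 13.4 CPM in Pilastro and 0.404 to 0.737 CPM in the others, and 1HG0002800, annotated as Pm3 after a wheat resistance gene to powdery mildew, at 9.15 CPM in Pilastro and 0.711 to 1.09 CPM. With Infinity left out of the contrast 15 of the 29 NLR calls were kept, with Regina left out 20, with Passport left out 23 and with Pilastro left out 22. Without the library labelled Passport waterlogged replicate 2 in the fit, 26 NLR genes were higher and 3 were lower.

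**Figure D4:**
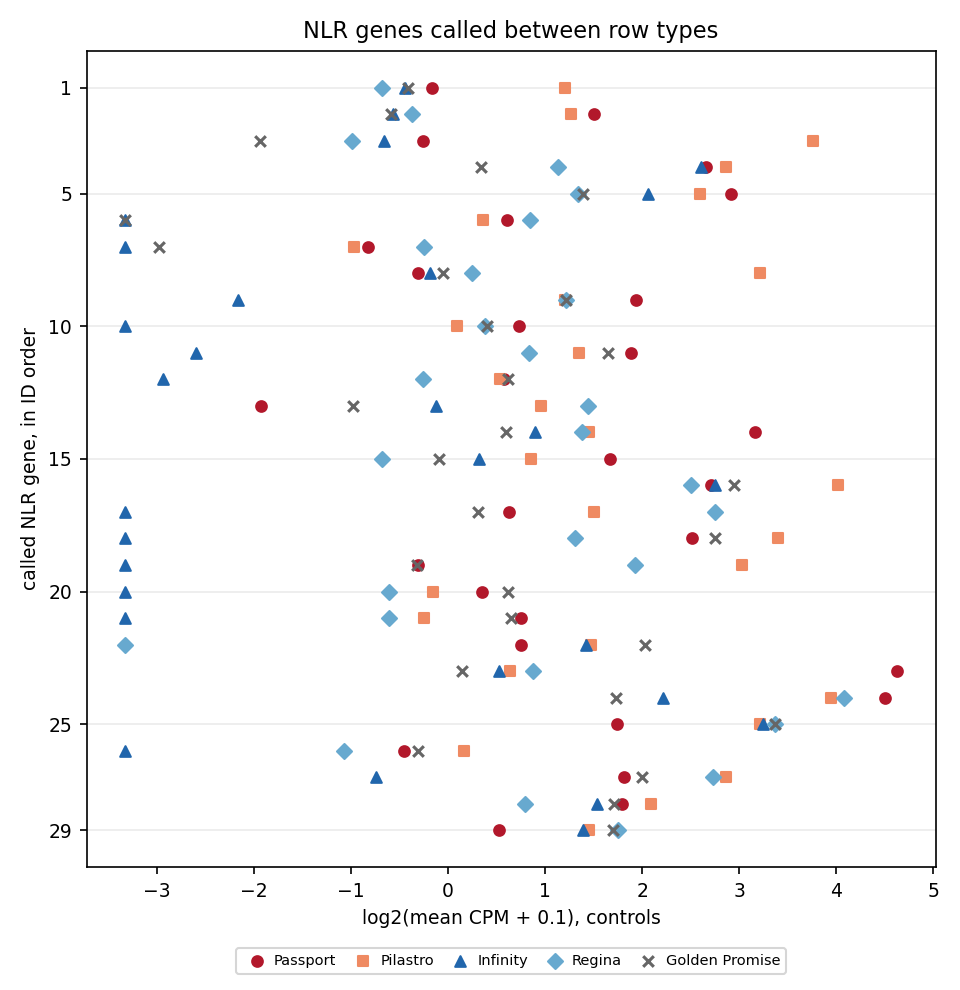
Mean level of the 29 NLR genes called between row types in control roots of each variety, as log2 of CPM plus 0.1 (horizontal axis), with the genes in the order of their IDs from top to bottom. Infinity lies at or near the left edge in 11 genes, Regina in 1, and both six-row varieties lie on the same side of both two-row varieties in 15 of the 29 genes, against 87.1% of all called genes.

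The NLR genes lie mostly in the first stretch of 1H by ID, up to 1HG0012670, where 27 of 40 tested NLR genes (67.5%) were called. Of the 285 other tested genes in that stretch 76 (26.7%) were called, which is above the 15.4% of all genes. Elsewhere on 1H, 2 of 13 NLR genes were called.

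Receptor kinases, which sense signals at the cell surface, were mostly lower where they differed. Of 50 tested, 2 were higher and 8 lower in six-row roots (4.00% and 16.0%, against 6.9% and 8.49% of all genes). The called genes all lie on 1H. A putative receptor protein kinase gene (1HG0000730) was called in all 4 pairs, with 0 to 0.413 CPM in six-row and 1.12 to 3.43 CPM in two-row libraries, and 7.16 CPM in Golden Promise. Its neighbor 1HG0000690 was at 4.91 CPM in Infinity and under 1 CPM in the other 3 varieties. In the other direction, the receptor-like kinase gene 1HG0002830 was at 0.331 to 1.74 CPM in six-row libraries and 0 to 0.36 CPM in two-row libraries, a difference that rests on few reads.

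Other lists of defense genes are read against the 6.9% of all genes that were higher and the 8.49% that were lower. Of 16 tested chitinase and glucanase genes, whose enzymes cut the walls of fungi, 1 acidic endochitinase gene (3HG0300110) was lower, with 15.0 CPM in Infinity and 3.66 to 5.68 CPM in the other 3 varieties. Of 11 protease inhibitor genes 3 were lower (27.3%), all wound-induced inhibitors on 1H. With Pilastro left out of the contrast 0 of these 3 calls were kept, with Infinity or Regina left out 2 and with Passport left out 3. In waterlogged roots 0 of them were also called. The call of 1HG0067180 was kept in every fit with 1 control library left out, but not when only the 12 winter control libraries were fitted. This gene was at 8.36 CPM in Passport, 0 in Pilastro, 82.9 in Infinity and 31.6 in Regina. Of 22 peroxidase genes on the list 2 were higher, both on 1H, and 0 lower. The peroxidase gene 2HG0107970 described above is not on that list. Of 22 glutathione S-transferase genes, which detoxify reactive compounds, 2 were higher, both on 1H. One of the latter, 1HG0008440, was at 870 ± 187 CPM in Passport, 642 ± 141 in Pilastro, 649 ± 63.7 in Regina and 313 ± 16.8 in Infinity (SD, n = 3). Of 25 jasmonate genes 5 were higher (20.0%) and 0 lower. Of these, 4 were jasmonate-induced proteins with neighboring IDs at the start of 1H that differed by 0.49 to 0.56 on the log2 scale, and 1HG0000470 was kept in all 12 fits with a library left out (77.8 to 115 CPM against 54.9 to 70.4 CPM, no overlap). Of 19 agmatine coumaroyltransferase genes, which make antifungal hordatine precursors in barley, 3 were lower (15.8%), and 1 of these calls was kept in every fit with 1 control library left out.

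The hypoxia genes named by the study were examined because the study chose its varieties by the expression of HvHB, HvADH1 and HvPDC1, so that differences between varieties in these genes are not independent of that choice. Roots short of oxygen switch to fermentation through pyruvate decarboxylase and alcohol dehydrogenase, and ERF transcription factors of group VII and phytoglobins belong to the same response. Of 14 genes that waterlogging raises, 3 were higher in six-row controls (21.4%, against 6.9% of all genes) and 0 lower. With Pilastro left out of the contrast 0 of these 3 calls were kept. HvHB, the phytoglobin gene (4HG0394960), was at 7.02, 25.4 and 288 CPM in six-row and 1.86, 9.90 and 44.0 CPM in two-row libraries, with a log2 difference of 1.79 (SE 0.55, adjusted p = 0.0303). Pilastro was high and variable (155 ± 126 CPM, SD, n = 3), while Passport (9.51 ± 3.87) lay between Infinity (5.78 ± 5.09) and Regina (21.3 ± 19.7). With Pilastro left out of the contrast the difference turned to -0.23 (adjusted p = 0.913).

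The HRE2 homolog (5HG0497970), an ERF gene, was at 5.61 to 60.2 CPM against 1.14 to 23.1 CPM (log2 difference 1.98, SE 0.58, adjusted p = 0.0223). RAP2.3 homolog a (1HG0060770), another ERF gene, was at 5.86, 17.5 and 31.4 CPM against 2.59, 5.68 and 26.4 CPM (1.31, SE 0.39, adjusted p = 0.0255). All 3 genes overlapped between row types, and none was called in all 4 pairs. With Regina left out of the contrast 1 of the 3 calls was kept, with Infinity left out 2 and with Passport left out 3. None of the 3 was called when only the 12 winter control libraries were fitted. Each of the 3 calls was lost without Infinity replicate 2 or 3, Passport replicate 2, Pilastro replicate 2, or Regina replicate 2 or 3, and that of RAP2.3 homolog a also without Pilastro replicate 3, with adjusted p up to 0.101, 0.0763 and 0.0719. In waterlogged roots the differences of the 3 genes were -0.41, -0.05 and 0.00 on the log2 scale, with adjusted p of 0.671, 0.984 and 1.00. Without the library labelled Passport waterlogged replicate 2 these values were -0.43, -0.08 and 0.06, with adjusted p of 0.69, 0.965 and 0.961.

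The other 11 hypoxia genes did not pass the test. HvPDC1, for pyruvate decarboxylase, was at 184 to 282 CPM in six-row and 99.3 to 241 CPM in two-row libraries (adjusted p = 0.314), and HvADH1, for alcohol dehydrogenase, at 35.1 to 120 against 19.1 to 112 CPM (adjusted p = 0.39). The respiratory burst oxidase gene, which makes superoxide, had a difference of 1.44 (SE 0.52, adjusted p = 0.0601). The 7 genes that waterlogging lowers, among them 3 peroxidases, a nitrate transporter and a cation exchanger, had differences of -0.79 to 0.64 and none was called. Both lists were chosen by the study on these samples for their response to treatment.

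Of 13 tested genes for making and handling ACC, the precursor of ethylene, 4 were higher (30.8%, against 6.9% of all genes) and 0 lower, and all 4 encode ACC oxidase, the last enzyme of ethylene synthesis. Gene 7HG0746640 was at 17.2 to 109 CPM against 4.95 to 60.6 CPM (log2 difference 1.63, SE 0.42, adjusted p = 0.0102), with overlap. In 2 others, 5HG0485780 and 5HG0485790, Pilastro alone was high, at 55 ± 15.7 and 23 ± 1.9 CPM (SD, n = 3) against 3.76 to 7.56 and 7.40 to 8.91 CPM in the other varieties. With Pilastro left out of the contrast, 0 of the 4 calls were kept. The call of the other gene, 1HG0021970, was lost without Infinity replicate 2 or 3, Passport replicate 2 or 3, Pilastro replicate 2, or Regina replicate 1 or 2 (adjusted p up to 0.0898).

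Alcohol dehydrogenase genes as a family were called in 7 of 30 cases, 1 higher and 6 lower (3.33% and 20.0%, against 6.9% and 8.49% of all genes). The higher one, 6HG0601820, was at 62.1 ± 5.79 CPM in Passport and 59.9 ± 3.49 in Pilastro (SD, n = 3), between Regina (75.4 ± 8.33) and Infinity (11.4 ± 1.75), so Infinity alone was low. With Infinity left out of the contrast its difference turned to -0.31 on the log2 scale (adjusted p = 0.0685). Of the 6 lower calls 3 were kept in every fit with 1 control library left out. Of the 7 calls of the family 4 were kept with Infinity, Regina or Pilastro left out of the contrast, and 6 with Passport left out. Of 16 aldehyde dehydrogenase genes 1 was higher and 3 lower, and 1HG0081000 was lower in all 4 pairs (131 to 162 against 176 to 205 CPM, log2 difference -0.44, SE 0.06, adjusted p = 4.80e-05).

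The remaining lists are again read against 6.9% of all genes higher and 8.49% lower. Of 91 tested genes on the 2-oxoglutarate-dependent oxygenase list 8 were higher (8.79%) and 6 lower (6.59%). The called genes include 2HG0107420 and 7HG0667470, annotated as 2-oxoglutarate dehydrogenase E1 components, which are not oxygenases. Of 45 F-box genes, whose proteins select targets for degradation, 4 were higher (8.89%) and 6 lower (13.3%), all on 1H. Of 50 amino acid transport genes 1 was higher and 4 lower, and of 42 chaperone genes 4 were higher and 2 lower. Of 48 pentatricopeptide repeat genes, which act on organelle RNA, 0 were higher and 2 lower, both on 1H. Of 25 ABC transporter G genes 4 were higher (16.0%), and with Infinity left out of the contrast 0 of these calls were kept. Of 14 ketoacyl-CoA synthase genes, which lengthen fatty acids for wax and suberin, 4 were higher (28.6%). With Regina left out 1 of these calls was kept, with Infinity or Pilastro left out 2 and with Passport left out 3. Of 11 MADS-box genes 2 were higher and 1 lower (27.3% called, against 15.4% of all genes). Of these 3 calls 1 was kept in every fit with 1 control library left out, and 0 were also called in waterlogged roots. With Pilastro, Infinity or Regina left out of the contrast 1 was kept, and with Passport left out 2. Of 13 genes on a list of ion and water transport and metal binding 1, a metallothionein-like gene, was higher. Of 21 candidate genes from waterlogging tolerance loci, 1 transporter-related gene (5HG0508840) was lower. HvTUBULIN and HvHSP70, for which the study lists primers beside those of HvACTIN, its only reference gene, were not called (differences of 0.11 and -0.11). HvACTIN was not on the list.

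The 12 waterlogged libraries of the same varieties share no library with the controls but were in the same fit. In them 2243 genes (10.9%) differed between row types. Of the 3165 control calls, 1551 were also called there in the same direction, which is 49.0% of the control calls and 69.1% of the waterlogged calls, and 0 were called in the opposite direction. The sign was the same in 3081 of the 3165 (97.3%), against 72.1% of the tested genes that were not called in controls. Of the 188 genes called in all 4 pairs, 184 were also called in waterlogged roots and all 188 had the same sign. The plants of both sets are of the same varieties, so this repeats the varieties and not the row types. Without the library labelled Passport waterlogged replicate 2, 2969 genes were called in controls, 1996 in waterlogged roots and 1405 in both. The sign was then the same in 97.3% of the control calls against 71.7% of the genes not called, and of 176 genes called in all 4 pairs 168 were also called in waterlogged roots and all 176 had the same sign.

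**Figure D5:**
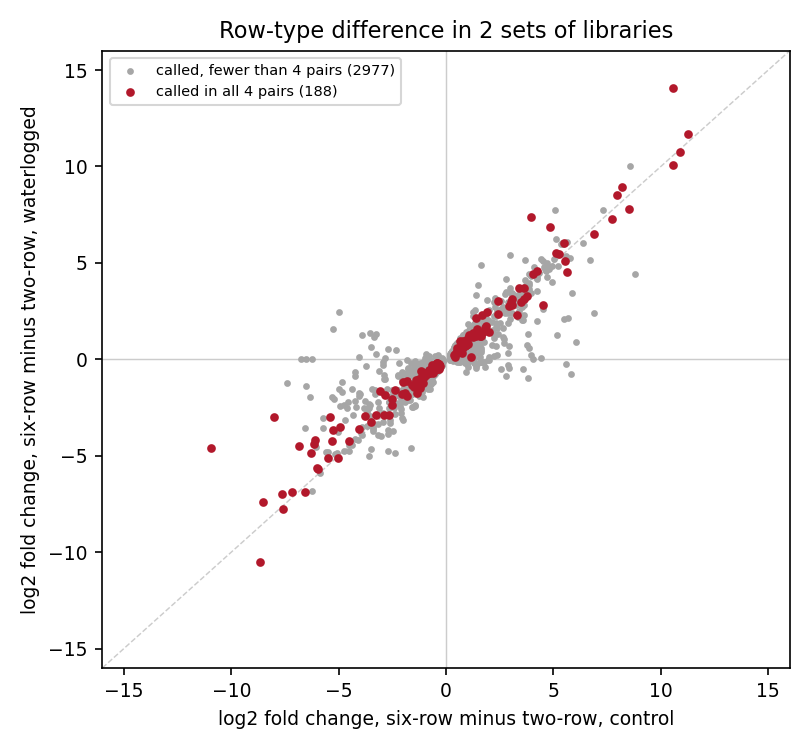
Log2 fold change of six-row against two-row varieties in control libraries (horizontal axis) and in waterlogged libraries (vertical axis), 1 point for each of the 3165 genes called in controls, with the 188 called in all 4 pairs in red and the line of equal values dashed. The 188 lie along the dashed line, and 84 genes in all lie in the quadrants of opposite sign.

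Whether the row-type difference changed with waterlogging was tested directly. EdgeR called 0 genes at an adjusted p under 0.05 (smallest 0.222), with 794 of 20576 at an unadjusted p under 0.05, and DESeq2 called 17. Without the library labelled Passport waterlogged replicate 2, edgeR also called 0 genes (smallest adjusted p 0.304), with 804 at an unadjusted p under 0.05. Of the genes described above as called in all 4 pairs, the peroxidase gene 2HG0107970 had a smaller difference in waterlogged roots (-1.20 on the log2 scale, unadjusted p = 0.00486). The APMAP-like gene 2HG0125650 had a larger one (unadjusted p = 0.00245), with 3.55 to 19.4 CPM in six-row and 0 to 0.579 CPM in two-row waterlogged libraries. Neither passed the adjustment over all genes, and without that library the unadjusted p-values were 0.012 and 0.00329.

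By the chromosome in the ID, the share of called genes was 17.3% on 1H, 16.0% on 2H, 15.6% on 3H, 12.6% on 4H, 13.8% on 5H, 16.6% on 6H and 15.6% on 7H. Genes called in all 4 pairs were more uneven, with 40 on 2H, 38 on 1H, 33 on 6H and 7 on 4H (1.16%, 1.43%, 1.38% and 0.283% of those tested). In the order of IDs, 36.0% of the called genes had another called gene next to them, against 27.8% of all tested genes with a called neighbor. For the 188 these shares were 10.6% and 1.79%. In 407 stretches of 50 tested genes the share called ran from 0 to 42%, with a median of 14%. The highest values were in the first stretch of 1H, which holds 7 of the tested NLR genes, and in 1 stretch of 7H. A stretch of 1H and 1 of 6H each held 6 of the 188.

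Golden Promise is a two-row variety of spring type. In 1822 of the 3165 genes (57.6%) its control level lay on the two-row side of the midpoint between row types, and in 105 of the 188 (55.9%). Over all tested genes the share was 55.9%. Among the called genes it was 53.2% of those higher and 61.1% of those lower in six-row roots, and the differences between these shares were not tested.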

How the data were processed

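Counts per gene were analyzed in 30 root libraries, grouped by the variety and treatment in their labels. The authors aligned reads to Morex version 3 with Bowtie2 2.4.5, used SAMtools 1.15.1, and obtained the deposited counts with StringTie 2.1.7. These are whole numbers, not normalized. Strand, trimming and reads that match several genes are not given in the sources used here. Of 58438 reference entries, 0 matched a gene ID, so names come from the study's text and the parts of its tables at hand. All columns were used.

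Counts were fitted in edgeR 4.0.16 (R 4.3.3) with TMM scaling, filterByExpr and 1 term per group over all 30 libraries (common dispersion 0.0653). Standard errors come from the F statistic. DESeq2 1.42.0 and limma 3.58.1 (log2 CPM, prior count 2) served for alternatives, and figures were drawn with python 3.11.15. Steps were tested on simulated data. Replicates come from experiments repeated independently. The libraries, lists and tests were chosen with earlier results of these data known. Named are the hypoxia genes of the study, up to 12 described genes in each direction among those called in all 4 pairs, up to 4 called genes with the largest change per list, 2 undescribed genes in each direction, and described genes present in 1 row type. Other genes were named after their values were seen. Leaving out a variety and leaving out 1 waterlogged library were chosen after seeing the data.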

Additional observations from a re-analysis of the deposited data

How the results depend on the processing

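Called genes between row types numbered 3165, and 2271 (without Regina replicate 3) to 3528 (without Regina replicate 1) when 1 control library was left out. Higher genes then ranged from 1044 to 1642, lower genes from 1227 to 1900, and control calls also called in waterlogged roots from 1356 to 1508. In all 12 such fits 1760 of the 3165 calls (55.6%) were kept. The row-type difference changed with waterlogging in 0 to 2 genes in these fits and in 17 with DESeq2. Within row types, Passport and Pilastro differed in 873 to 1347 genes and Infinity and Regina in 677 to 932. With only the 12 winter control libraries in the fit, 1981 genes were called, 971 higher and 1010 lower, 114 in all 4 pairs, and 771 between Passport and Pilastro. Against a 2-fold change the counts were 209, 113 higher and 96 lower, 36 in all 4 pairs, 152 also in waterlogged roots, and 320 and 311 within the six-row and two-row varieties. With Pilastro or Regina left out of the contrast 1719 and 2101 genes were called. Other scalings, filters, DESeq2 (3767 called) and a fit of the 24 winter libraries (2926) moved the number called by less than 1.5 times. With varieties as replicates, a prior count of 0.5 called 0 genes (2384 at an unadjusted p under 0.05) and 5 called 2. With limits of 3 and 30 counts, 4 genes were present only in six-row and 2 only in two-row controls, and with 0 and 10 counts 3 only in two-row controls. PC1 still separated the row types with 2000 genes, all tested genes or log2 CPM, with 81.9%, 62.9% and 85.7% of its variance between them.

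Deviations from the group means of same-numbered controls of different varieties were correlated at -0.315 to 0.354, and over 0.1 in 5 of 18 pairs. In replicate order the values were 0.158, 0.0492 and 0.231 between Passport and Pilastro. Between Infinity and Regina they were -0.029, 0.354 and 0.177. Pairs of different row type had values of -0.315 to 0.114. Whether same-numbered samples of 1 row type shared handling was not tested. With the replicate block 3063 genes were called, of which 2962 were among the 3165, and 184 in all 4 pairs. No named gene that was called reversed its direction under these alternatives, but with a variety left out of the contrast, an alternative chosen after seeing the data, 11 of 94 called named genes did, none past the threshold. Without Pilastro HvHB (4HG0394960) was at -0.23 and the ACC oxidase genes 5HG0485780 and 5HG0485790 at -0.43 and -0.14. Without Infinity the alcohol dehydrogenase gene 6HG0601820 was at -0.31 and the ketoacyl-CoA synthase gene 4HG0401580 at -0.45. Without Passport the oxygenase gene 7HG0663570 was at 0.13 and the metallothionein-like gene 1HG0061540 at -0.49. Without Regina the oxygenase genes 6HG0627380 and 7HG0648620 were at 0.47 and -0.56, the alcohol dehydrogenase gene 6HG0627090 at 0.40 and the MADS-box gene 1HG0008610 at -0.49. Depth limits genes under about 1 CPM, where a library holds about 10 reads and calls such as that of 1HG0002830 rest on few of them.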
